A study of Mus musculus with 6 samples.

Results

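The proteasome genes of the mouse striatum are described here across 6 mice, 3 of them Shank3 TG and 3 WT. Members were taken by symbol, as protein-coding genes of the GENCODE mouse M21 annotation named Psma to Psmg followed by a digit. A member also had to average 10 or more normalized read counts across the 6 libraries. The symbol matched 50 genes, all listed in the deposited table, and 49 of them passed the minimum, out of 17605 genes that passed among 46078 listed. The core was represented by 18 genes (Psma and Psmb) and the regulatory particle by 21 (Psmc and Psmd), and the other 10 were Psme, Psmf1 and Psmg genes. Psma8, an alpha subunit of the testis, was the 1 gene below the minimum, with normalized read counts of 6.01, 7.87 and 8.76 in Shank3 TG replicates 1, 2 and 3 and of 8.01, 11.2 and 10.8 in WT replicates 1, 2 and 3. Just inside it were Psme2b, with a mean of 10.3, and Psmb11, with a mean of 11.6. Throughout, values in a sentence follow the replicate numbers, Shank3 TG first.

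The Shank3 TG mice carry an EGFP-tagged Shank3 transgene, whose promoter is not given in the sources used here, and both genotypes were on a C57BL/6J background. All mice were untreated males aged 12 weeks, and the whole striatum of each gave 1 library, made with a kit that does not keep the strand. Shank3 is a scaffold protein of excitatory synapses, and the comparison asked how its overexpression changes striatal RNA. Between 27689589 and 36647626 reads per library fell on genes, and the 49 members received 72276 to 96391 of them.

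The proteasome is the protease that degrades proteins tagged with ubiquitin. Its barrel-shaped core encloses the cutting sites, carried by beta subunits, and is closed at each end by a ring of alpha subunits. The regulatory particle caps the core: its base unfolds substrates with a ring of ATPases, and its lid removes the ubiquitin tag. Neurons use this machinery at synapses, where the turnover of scaffold proteins is part of synaptic plasticity.

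Shank3 itself, the overexpressed gene, was measured at 29891, 28308 and 26044 normalized read counts in the Shank3 TG libraries and at 13807, 12918 and 13865 in the WT libraries. The groups were far apart, with a log2 fold change of 1.05 ± 0.06 (SE, limma) and an adjusted P of 7.04e-05 (Benjamini-Hochberg). It was the 1 gene of 17605 (0.00568%) that passed an adjusted P of 0.05. The spiny neuron markers Drd1, Drd2 and Ppp1r1b were present in every library. Libraries differed in other tissue. The 12 choroid plexus markers summed to 8452 to 28962 in Shank3 TG mice and 8068 to 9211 in WT mice. Ttr, the thyroid hormone carrier that defines this tissue, reached 13701 in Shank3 TG replicate 1 against 120 to 1122 in the other 5 libraries. The median log2 difference of the 12 from the WT mean was 3.04, 1.00 and -0.17 in Shank3 TG mice and 0.026, -0.096 and 0.13 in WT mice. Shank3 TG replicate 2 was thus raised as well. All 12 had a higher mean in Shank3 TG mice, 4 at an unadjusted limma P under 0.05 (1.98% of all genes).

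No proteasome gene differed between the genotypes past the adjusted threshold. With limma and Benjamini-Hochberg adjustment the smallest adjusted P of a member was 0.971, and edgeR and DESeq2 also called 0 members. At an unadjusted P of 0.05 limma had 1 member higher in Shank3 TG mice, the ATPase Psmc2, and 1 lower, the assembly chaperone Psmg4, where 1.98% and 2.33% of all genes were higher and lower, 4.31% in all. With edgeR 2 members had an unadjusted P under 0.05 and with DESeq2 0. The 3 mice of a genotype did not overlap with those of the other for 2 members that were higher (Psmc2 and Psmd12) and 1 that was lower (Psmg4), against 5.06% and 5.05% of all genes and 10.1% in either direction, so these counts were near or below the background. The mean was higher in Shank3 TG mice for 34 of the 49 members (69.4%, against 49.2% of all genes), and the median log2 fold change was 0.02 over the members and -0.0018 over all genes. Without WT replicate 3 the number of higher members was 27.

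What the data bounded was the size of the differences. The 95% interval of the fold change lay within 1.2-fold either way for 39 of the 49 members, whereas 49.2% of all genes met this. Genes with few reads have wider intervals. With a mean of at least 100, 39 of 43 members and 8661 of 12832 genes met it. Only 2 members, Psmb11 and Psme2b, were over 1.2-fold apart (9.09% of all genes), and both were near the lower limit of counting. Mice of one genotype differed little from each other in these genes, with a median within-group SD of 0.05 on the log2 scale, against 0.11 over all genes. Among genes with a mean of at least 100, the 43 members had a median SD of 0.047 and the 12832 genes a median SD of 0.083. Levels were not matched beyond this minimum, so the part of read depth in these differences was not tested. All 31 standard subunits of the core and the regulatory particle had intervals within 1.2-fold.

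**Figure D1:**
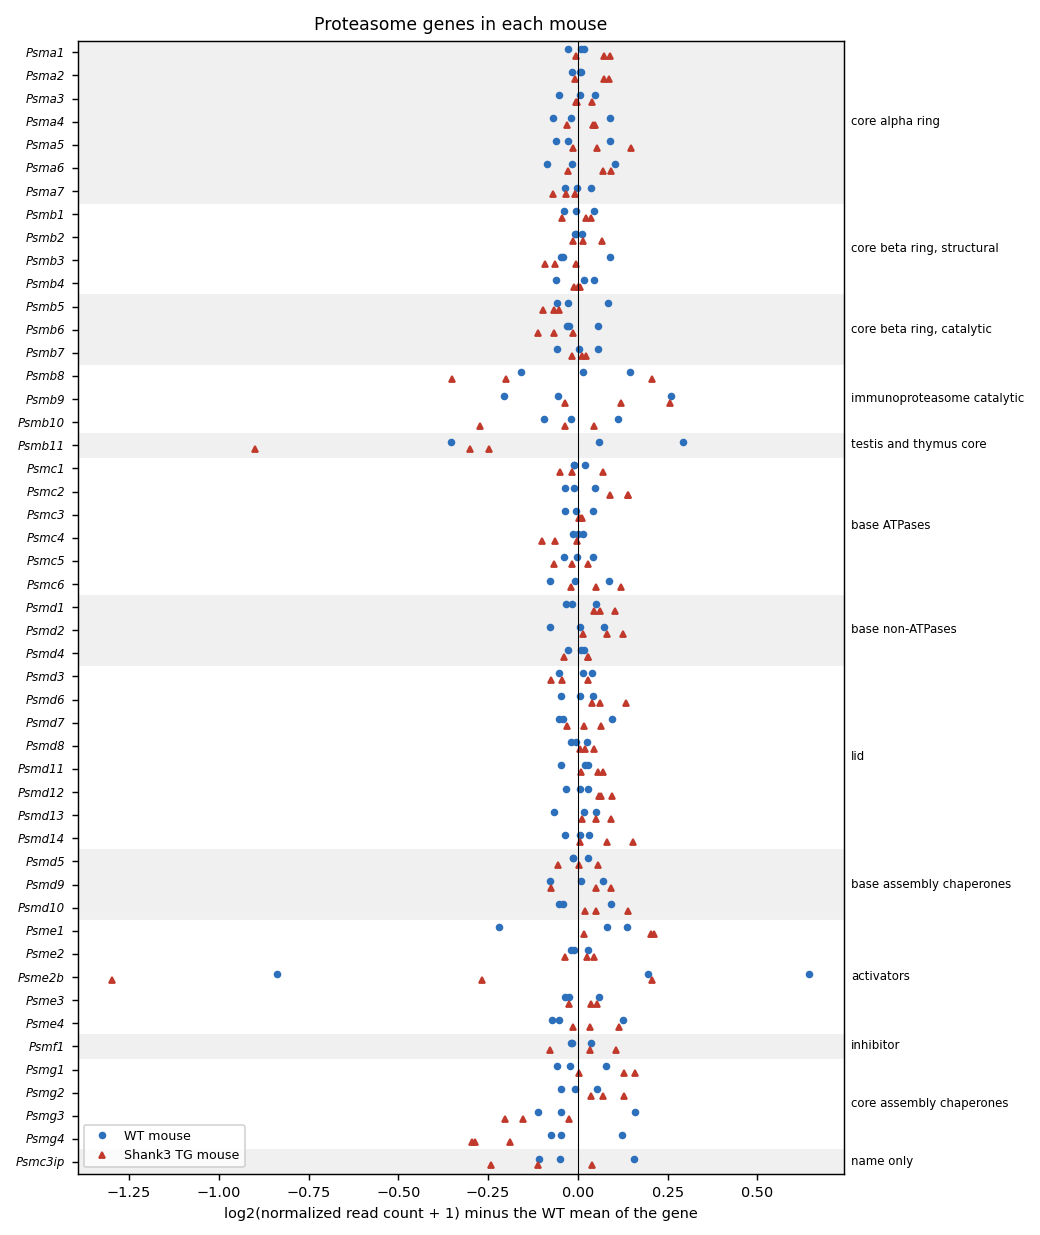
Value of each member in each mouse as log2(normalized read count + 1) minus the gene's WT mean, with blue circles for WT and red triangles for Shank3 TG mice and rows grouped by role. The standard subunits stay close to 0 in every mouse, whereas Psmb8, Psmb9, Psmb11 and Psme2b, which have few reads, are spread widely in both genotypes.

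The 7 alpha subunits form the outer rings of the core and its gate. Their log2 fold changes lay between -0.04 (Psma7) and 0.06 (Psma5), with a median of 0.05, and 6 of 7 were above 0. Psma5 counted 1306, 1246 and 1394 in Shank3 TG mice and 1339, 1234 and 1205 in WT mice, and Psma7 2026, 2113 and 2078 against 2181, 2124 and 2075. The genotypes overlapped for every alpha subunit. In all, 23.4% of the sequence words of read length in Psma5 also occur in other annotated genes, Gm8394 and Gm12989, and 13.4% of those of Psma3 in Gm13835, so the reads of these 2 genes are partly uncertain.

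The beta rings hold 4 structural subunits and 3 catalytic ones. The structural subunits Psmb1, Psmb2, Psmb3 and Psmb4 had log2 fold changes of 0.0049, 0.02, -0.05 and -0.0012. Of the catalytic subunits, Psmb5 carries the chymotrypsin-like, Psmb6 the caspase-like and Psmb7 the trypsin-like activity. Psmb5 was at 1052, 1030 and 1061 in Shank3 TG mice and 1059, 1168 and 1081 in WT mice, which gave a log2 fold change of -0.07 ± 0.06 (SE). The genotypes overlapped only through WT replicate 1, which lay within the Shank3 TG range. Psmb6 was at 1714, 1832 and 1768 against 1811, 1925 and 1818 (log2 fold change -0.06 ± 0.05), and Psmb7 at 2456, 2438 and 2392 against 2512, 2423 and 2322 (0.0062 ± 0.05). These values overlapped as well, and the direction for Psmb7 turned under other settings. The genes sharing sequence with Psmb5, 21.7% of its words of read length, include Gm3375.

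Interferon-inducible subunits can replace the 3 catalytic subunits, Psmb8 for Psmb5, Psmb9 for Psmb6 and Psmb10 for Psmb7, which makes the immunoproteasome of immune cells. Psmb8 (chr17:34197721-34201454, plus strand, GRCm38) and Psmb9 (chr17:34181987-34187764, minus strand) lie close together, and Psmb10 is on chr8:105935735-105938444 (minus strand). Psmb8 was low at 42.0, 31.5 and 28.2 in Shank3 TG mice and 36.6, 40.2 and 32.4 in WT mice, and Psmb9 at 42.9, 34.8 and 39.0 against 30.9, 43.0 and 34.4. Psmb10 had higher counts, at 560, 450 and 530 against 587, 536 and 509. All 3 overlapped between genotypes, with log2 fold changes of -0.11 ± 0.21, 0.11 ± 0.20 and -0.09 ± 0.09 (SE, limma). Exons of genes on the opposite strand overlap 14.7% of the exon bases of Psmb8 (Gm20496) and 5.79% of those of Psmb9 (Tap1). For Psmb7 the overlap is 11.8% (Nek6), so the reads of these genes are partly uncertain.

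Per kilobase of exon, Psmb8 made up 0.853% ± 0.179 of Psmb8 and Psmb5 together in Shank3 TG and 0.870% ± 0.0685 in WT mice (SD, n = 3 each; two-sided exact permutation P = 1). Psmb9 made up 1.11% ± 0.150 and 0.984% ± 0.134 of its pair with Psmb6 (exact permutation P = 0.4). Psmb10 made up a much larger part of its pair with Psmb7, 29.7% ± 2.38 against 31.1% ± 0.752 (exact permutation P = 0.6). Adjusted over the 3 pairs by Benjamini-Hochberg these exact P values were 1, 0.9 and 0.9, and with 3 mice against 3 this test cannot go below 0.1. All 3 shares depend on which exons are counted. Per kilobase of the longest coding transcript, in Shank3 TG and WT mice, the Psmb8 share was 1.76% and 1.79%. On the same length the Psmb9 share was 1.28% and 1.13%, and the Psmb10 share 15.7% and 16.6%. The 11 interferon-stimulated genes listed beside these subunits summed to 3411 to 3959 in Shank3 TG mice and 3546 to 3780 in WT mice. The mean was higher in Shank3 TG mice for 3 of them and lower for 8, where 49.2% of all genes were higher. With limma and Benjamini-Hochberg 0 passed the adjusted threshold. At an unadjusted limma P of 0.05 there was 1 lower gene, Oasl2 (2.33% of all genes). The groups did not overlap for 1 higher and 1 lower gene (5.06% and 5.05% of all genes). The 10 microglia markers, none at 0, summed to 13760 to 15007 in Shank3 TG mice and 15175 to 15825 in WT mice without overlap. All 10 had a lower mean in Shank3 TG mice, 5 at an unadjusted limma P under 0.05 (2.33% of all genes). The part of microglia in the immunoproteasome values was not tested. In bulk tissue, fewer cells of a type and less RNA per cell cannot be told apart.

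**Figure D2:**
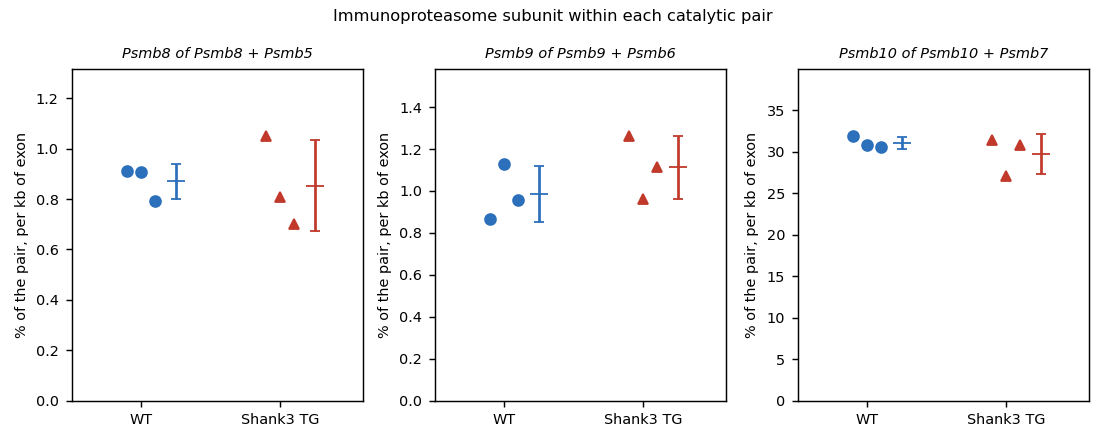
Share of the immunoproteasome subunit in each catalytic pair, in % of the summed normalized read counts per kb of exon, with points for mice and bars for the mean ± SD of 3 mice, on axes that start at 0. Both genotypes sit near 1% for Psmb8 and Psmb9 and near 30% for Psmb10, with overlapping points in all 3 panels.

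Psmb11, which belongs to the thymus, was at 11.2, 6.74 and 10.7 in Shank3 TG mice and at 10.3, 14.0 and 16.7 in WT mice. Its log2 fold change of -0.48 ± 0.32 was the largest in size of the members, on overlapping values, with an unadjusted P of 0.164 and an adjusted P of 0.971 (limma with Benjamini-Hochberg).

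The 6 ATPases of the base, Psmc1 to Psmc6, unfold the substrate and thread it into the core. Psmc2 (chr5:21785283-21803787, plus strand) counted 2543, 2632 and 2633 in Shank3 TG mice and 2471, 2375 and 2332 in WT mice. All 3 Shank3 TG values exceeded the highest WT value. Its log2 fold change was 0.12 ± 0.05 (SE), with a 95% interval of 0.02 to 0.22, an unadjusted limma P of 0.0249 and an adjusted P of 0.971 (Benjamini-Hochberg). By unadjusted P Psmc2 ranked 331 of 17605 genes, and with DESeq2 on the recovered reads its unadjusted P was 0.0533. No other annotated gene overlaps its exons or shares a sequence word of read length with it. The other 5 ATPases had log2 fold changes between -0.06 (Psmc4) and 0.05 (Psmc6), and the median of the 6 was 0.0040. Psmc5 counted 3806, 3680 and 3931 against 3963, 3846 and 3751, a log2 fold change of -0.02 whose sign turned when 1 library was left out.

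The non-ATPase subunits of the base are Psmd1 and Psmd2, the large scaffolds that dock ubiquitin shuttles, and Psmd4, a ubiquitin receptor. Psmd2 was the member with the highest count, at 6138, 6426 and 6639 in Shank3 TG mice and 5764, 6392 and 6099 in WT mice, with log2 fold changes of 0.07 for Psmd1, 0.07 for Psmd2 and 0.0066 for Psmd4. None of the 3 passed an unadjusted P of 0.05, and the genotypes overlapped for each.

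The 8 lid subunits include Psmd14, the metalloprotease that cuts ubiquitin from the substrate. Log2 fold changes were above 0 for 7 of 8, with a median of 0.05 and a range of -0.03 (Psmd3) to 0.08 (Psmd14). Psmd12, a structural subunit, counted 1716, 1708 and 1754 in Shank3 TG mice and 1673, 1648 and 1603 in WT mice. The groups did not overlap, but the log2 fold change of 0.07 ± 0.05 (SE) had an unadjusted P of 0.155 and an adjusted P of 0.971 (limma with Benjamini-Hochberg). Psmd6 counted 1620, 1730 and 1646 against 1621, 1581 and 1526, and here the lowest Shank3 TG value fell just under the highest WT value (log2 fold change 0.08 ± 0.05). Psmd14 was at 1842, 2040 and 1944 against 1876, 1841 and 1791, with overlap.

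**Figure D3:**
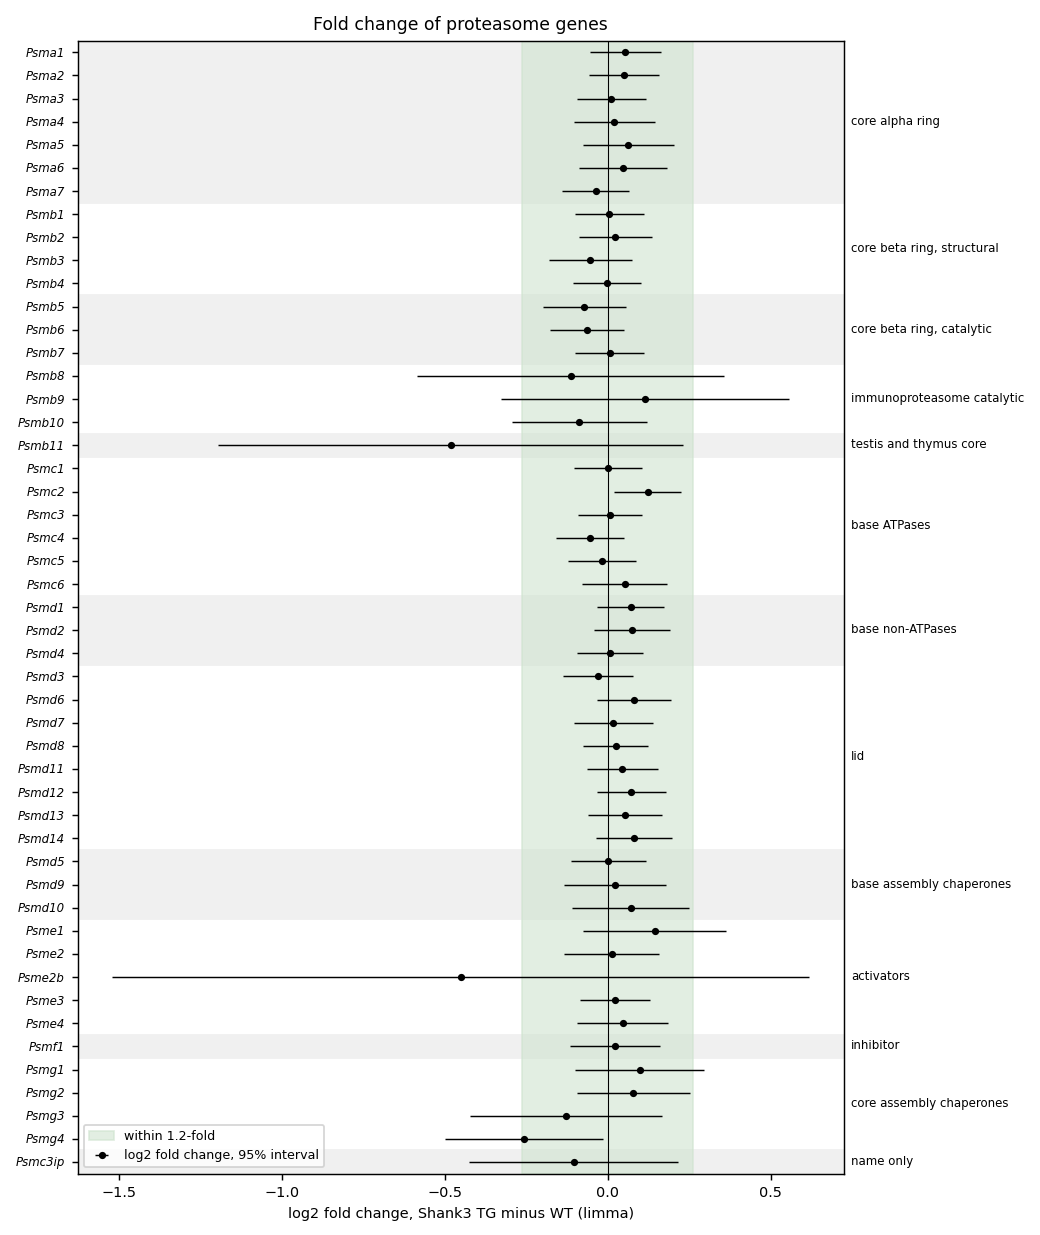
Log2 fold change of each member, Shank3 TG minus WT, with its 95% interval from limma, in rows by role, and a green band for 1.2-fold either way. The intervals of Psmc2 and Psmg4 alone exclude 0, before any adjustment, and those of the 31 standard subunits lie inside the band.

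The core and the regulatory particle were compared as groups by their medians, which are descriptions over chosen genes and carry no test. The median log2 fold change was 0.0056 over the 18 core genes and 0.02 over the 21 regulatory particle genes, with 10 of 18 and 17 of 21 above 0. By part, the median was 0.045 for the alpha ring, -0.0012 for the standard beta subunits, 0.0040 for the ATPases and 0.048 for the lid. It was 0.07 for the non-ATPase subunits of the base. The alpha ring of the core was thus near the lid of the regulatory particle. Relative to the WT mean, the core median of each mouse was 0.014, -0.0071 and -0.013 in Shank3 TG mice and 0.015, 0.0039 and -0.040 in WT mice. The core medians overlapped. The regulatory particle median was 0.029, 0.040 and 0.029 against -0.0066, 0.0059 and -0.034, and these did not overlap. That separation depended on the genes included. Over the 17 regulatory particle subunits without chaperones and Psmc3ip, the median was 0.029, 0.020 and 0.051 against 0.028, 0.0055 and -0.034, with overlap. WT replicate 3 was the lowest mouse for the core and for the regulatory particle. Core minus regulatory particle was -0.015, -0.047 and -0.042 in Shank3 TG mice and 0.022, -0.0019 and -0.0063 in WT mice, below every WT mouse in each Shank3 TG mouse. The SD of this difference between mice of one genotype was 0.016. Taken instead over the fold changes of the genes, the core median minus the regulatory particle median was -0.019. That value grew in size to between -0.020 and -0.034 with 1 library left out (-0.034 without WT replicate 3 and -0.032 without Shank3 TG replicate 1), and was -0.032 with a correction for GC content and length and -0.036 over the 31 standard subunits.

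Summed normalized read counts were compared over the standard subunits alone, as a ratio in which abundant genes weigh more. The 17 regulatory particle subunits without chaperones summed to 1.80, 1.79 and 1.83 times the 14 standard core subunits in Shank3 TG mice and to 1.74, 1.78 and 1.79 times in WT mice. Every Shank3 TG ratio was above the highest WT ratio before rounding. The 49 members together took 0.263%, 0.266% and 0.266% of the normalized read counts in Shank3 TG mice and 0.261%, 0.263% and 0.257% in WT mice. These shares overlapped.

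**Figure D4:**
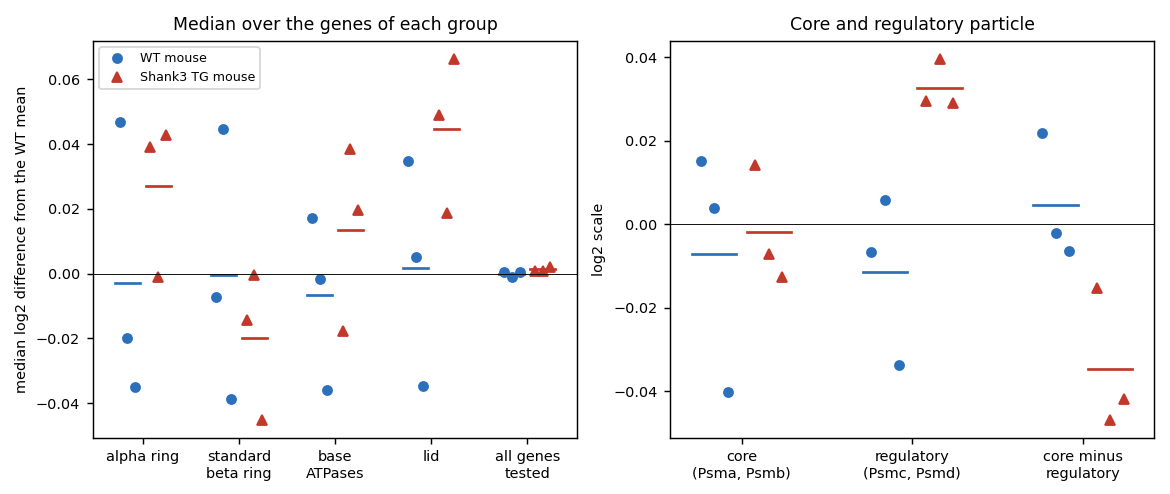
Median over the genes of a group in each mouse, as log2 difference from the WT mean (left, with all genes tested for scale), and the core, the regulatory particle and their difference (right), with blue circles for WT and red triangles for Shank3 TG mice and bars for group means. The regulatory particle medians of the Shank3 TG mice, over all Psmc and Psmd genes, lie above those of the WT mice, on an axis that spans less than 0.1 log2 units. Without the chaperones and Psmc3ip, which is not drawn, these medians overlap.

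Subunits that enter the complex in equal number differed in normalized read counts per kilobase of annotated length. Which annotated transcripts the reads came from was not tested. Per kilobase of all annotated exons, the 31 standard subunits had a median level of 708 normalized read counts and ran from 274 (Psmd11) to 2747 (Psmc5). The median was 684 for the alpha ring, 968 for the beta ring, 1120 for the ATPases and 653 for the lid. Per kilobase of the longest coding transcript, the median of the 31 was 1471 and the range 4.88-fold, with Psma2 lowest at 596 and Psmc5 again highest at 2910. The order between these ends depended on the length used, and Psmb6 moved from rank 12 to rank 2 and Psmb5 from rank 8 to rank 21. Levels of the core assembly chaperones were lower, with a median of 194 per kilobase of exon, and Psmb11 was the lowest member at 2.42.

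**Figure D5:**
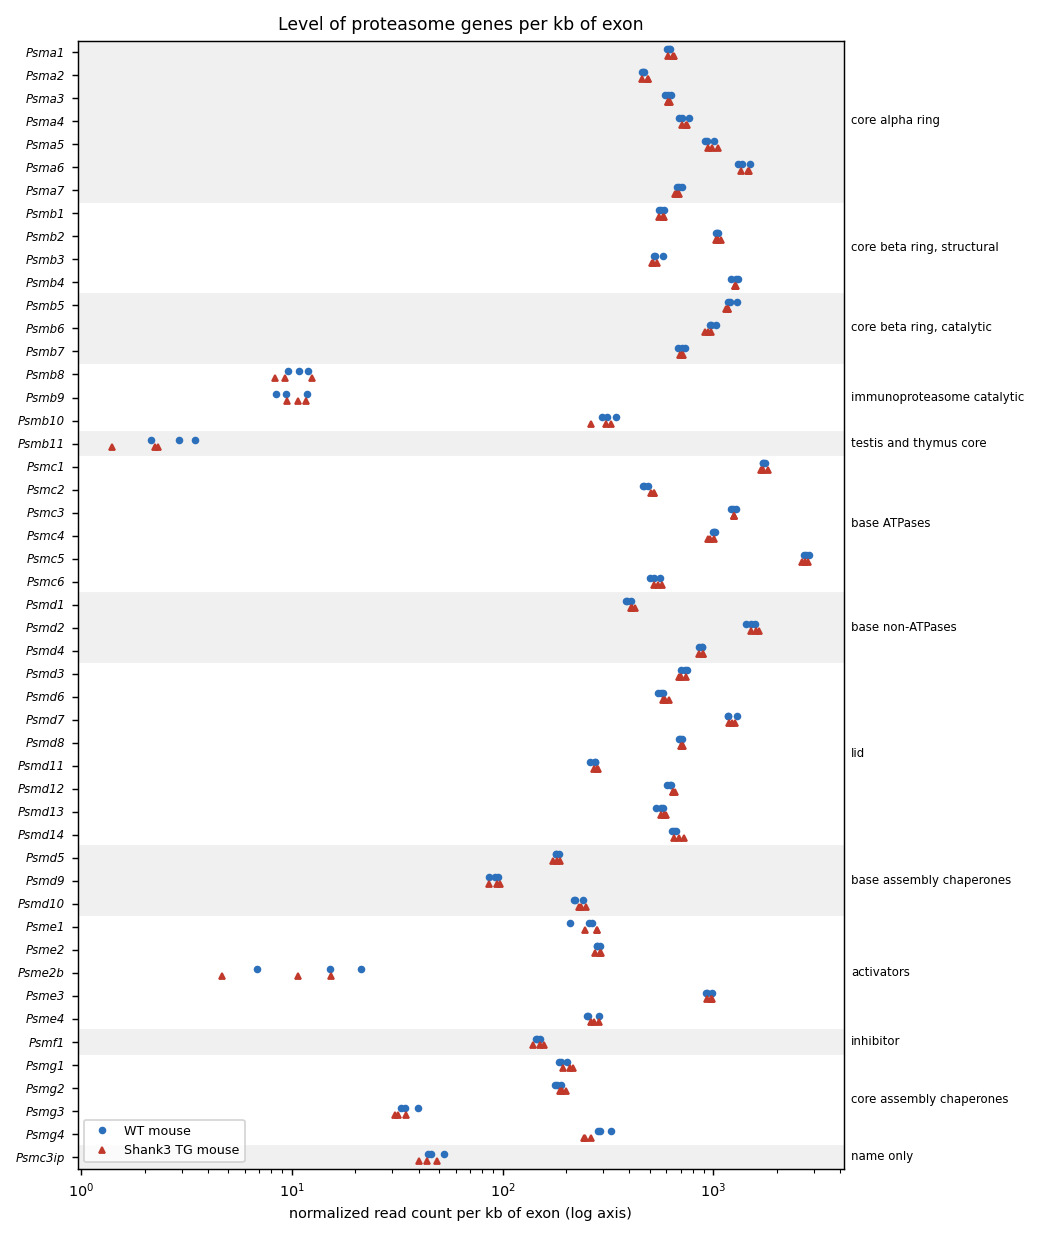
Normalized read count per kb of annotated exon for each member in each mouse, on a log axis, with blue circles for WT and red triangles for Shank3 TG mice and rows by role. Psmc5 is highest at 2747 and Psmb11 lowest at 2.42.

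The chaperones of assembly and the alternative caps were the remaining members. Psmd5, Psmd9 and Psmd10, which chaperone the base, had log2 fold changes of 0.0014, 0.02 and 0.07. For Psmd9, 25.5% of the exon bases overlap Gm26745, so its reads are partly uncertain. Psmg1 to Psmg4 build the alpha ring in 2 pairs, and Psmg4 was the lowest in P among the members below 0. Psmg4 (chr13:34162964-34178173, plus strand) counted 136, 146 and 136 in Shank3 TG mice and 161, 181 and 158 in WT mice. All 3 Shank3 TG values were below the lowest WT value. The log2 fold change was -0.26 ± 0.11 (SE), with a 95% interval of -0.50 to -0.02, an unadjusted P of 0.0389 and an adjusted P of 0.971 (limma with Benjamini-Hochberg). Its partner Psmg3 was at 89.2, 101.2 and 92.5 against 99.6, 115 and 95.2 (log2 fold change -0.13 ± 0.13), whereas Psmg1 and Psmg2, the other pair, were at 0.10 and 0.08.

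Among the activators, which open the core without ATP, Psme1 was at 621, 617 and 542 in Shank3 TG mice and 589, 568 and 460 in WT mice, which gave a log2 fold change of 0.14 ± 0.10 on overlapping values. Its partner Psme2 was at 0.01, and Psme3, the nuclear activator, at 0.02. Psme4, the largest activator, was at 0.05, and Psmf1, an inhibitor of the core, at 0.02. The copy Psme2b had 12.9, 8.99 and 3.89 against 5.72, 17.8 and 12.8, and 51.7% of its words of read length also occur in Psme2, so its level is uncertain. Psmc3ip matches the naming rule without being a subunit, as it is a partner of the recombinases of meiosis, and its log2 fold change was -0.10 ± 0.14.

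Promoter sequences were taken from RefSeq (GRCm38.p6) as the 250 bases before the start site, and 42 of the 49 members had one. Those of Psmc2 and Psmg4, the members with the smallest P in each direction, and of Psmb5 and Psmb9, a standard and an inducible catalytic subunit, are shown. Capitals mark a match, on either strand, to CCAAT or to TGACNNNGC, the letters of the antioxidant response element bound by Nfe2l1 and Nfe2l2. The Psmc2 sequence is at chr5:21785025-21785274 (plus strand), that of Psmg4 at chr13:34162714-34162963 (plus), that of Psmb5 at chr14:54617996-54618245 (minus) and that of Psmb9 at chr17:34187331-34187580 (minus). The Psmb9 window lies inside the gene as GENCODE draws it, since RefSeq starts that gene further downstream, and the Psmb5 window overlaps its gene in part.
Psmc2: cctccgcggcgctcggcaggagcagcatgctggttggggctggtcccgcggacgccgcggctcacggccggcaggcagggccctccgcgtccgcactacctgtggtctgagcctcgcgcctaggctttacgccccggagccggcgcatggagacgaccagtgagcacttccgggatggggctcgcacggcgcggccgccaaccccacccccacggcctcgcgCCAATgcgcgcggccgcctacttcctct
Psmg4: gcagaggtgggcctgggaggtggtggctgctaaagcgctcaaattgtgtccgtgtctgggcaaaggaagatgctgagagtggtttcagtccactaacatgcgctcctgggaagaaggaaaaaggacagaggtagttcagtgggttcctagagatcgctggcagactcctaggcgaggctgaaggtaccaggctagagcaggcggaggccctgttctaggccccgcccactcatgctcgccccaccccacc
Psmb5: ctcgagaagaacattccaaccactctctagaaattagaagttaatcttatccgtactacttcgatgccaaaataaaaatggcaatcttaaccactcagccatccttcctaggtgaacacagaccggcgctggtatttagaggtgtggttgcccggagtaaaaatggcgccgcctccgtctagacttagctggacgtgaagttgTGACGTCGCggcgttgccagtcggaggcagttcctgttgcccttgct
Psmb9: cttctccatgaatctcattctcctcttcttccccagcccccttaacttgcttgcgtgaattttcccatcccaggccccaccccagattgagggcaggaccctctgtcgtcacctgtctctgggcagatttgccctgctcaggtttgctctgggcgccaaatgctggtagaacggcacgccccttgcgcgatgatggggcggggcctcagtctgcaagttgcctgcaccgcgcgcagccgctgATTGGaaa

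Psmb5 holds 1 match to the letters TGACNNNGC, Psmc2 and Psmb9 hold 1 CCAAT each (read as ATTGG on the printed strand in Psmb9), and Psmg4 holds neither. Over the members, TGACNNNGC was found for 5 of 42 genes (Psmb5, Psmb6, Psmc6, Psmd9 and Psmd12), against 10.2% of 32851 RefSeq promoters of the same length. A member was counted once if any of its promoters matched, whereas the background counts promoters, so the shares differ in unit. CCAAT was found in 15 of 42, against 33.8%. The core of the interferon response element, GAAA and GAAA with 2 bases of any kind between, was found in 3 of 42, against 2.98%, and in none of Psmb8, Psmb9 and Psmb10. TATAAA was found in 4 of 42, against 12.4%. Matches to these letters, searched on both strands, are descriptions of the windows.

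Genes that supply, deliver to or regulate the proteasome under other names were read from 5 lists with 34 genes tested. The mean was higher in Shank3 TG mice for 24 and lower for 10, with a median log2 fold change of 0.03, and limma with Benjamini-Hochberg called 0 of them. At an unadjusted P of 0.05 there was 1 higher and 1 lower (1.98% and 2.33% of all genes), and the groups did not overlap for 4 higher and 2 lower genes (5.06% and 5.05% of all genes). Usp14, the ubiquitin protease that binds the base, counted 3482, 3482 and 3688 in Shank3 TG mice and 3225, 3257 and 3221 in WT mice. All 3 Shank3 TG values were above the WT values, and the log2 fold change was 0.13 ± 0.04 (SE), with an unadjusted P of 0.0132 and an adjusted P of 0.971 (limma, Benjamini-Hochberg).

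By list, the 6 subunits and chaperones under other names (Adrm1, Sem1 and Usp14 among them) had 5 means above WT, the 6 genes of proteasome transcription and import 5, the 6 genes of ubiquitin supply and activation 4, the 10 shuttles 7 and the 6 ligases 3. Nfe2l1, the transcription factor that drives proteasome genes when proteolysis is blocked, was at 11936, 11895 and 12203 in Shank3 TG mice and 11923, 11694 and 12048 in WT mice. The log2 fold change came to 0.01 ± 0.04, on overlapping values. Ngly1, which removes sugars from Nfe2l1, had a log2 fold change of 0.13 and the shuttle Rad23b 0.08, while Stub1, a chaperone-linked ubiquitin ligase, was at -0.14 and the shuttle Ubqln4 at -0.08. None of these 4 passed an unadjusted P of 0.05.

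Marker sums of other cell types were read beside the members. The 11 spiny neuron markers summed to 130238, 181254 and 152250 in Shank3 TG mice and to 156932, 163171 and 180754 in WT mice. These ranges overlapped, but no Shank3 TG sum fell inside the WT range. Shank3 TG replicates 1 and 3 lay below every WT mouse and replicate 2 above every WT mouse. Of the 11, 9 had a lower mean in Shank3 TG mice, with a median log2 fold change of -0.14, and 0 had an unadjusted limma P under 0.05. Sums overlapped also for the 9 endothelial, 6 ependymal, 7 astrocyte, 8 oligodendrocyte and 7 cortical excitatory neuron markers. Shank3 TG replicate 1, with the most choroid plexus and the fewest spiny neuron reads, had a regulatory particle median of 0.029, inside the range of the other Shank3 TG mice. Its core median of 0.014 and its core minus regulatory particle value of -0.015 lay above both of theirs. The part of cell makeup in the proteasome values was not tested.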

How the data were processed

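Per the paper's methods and the submitters' processing notes, the authors trimmed the 101-base reads with Trimmomatic 0.35, mapped the result to GRCm38 with TopHat2 2.1.0, obtained gene counts from HTSeq and normalized these with DESeq2. The deposited signal is the count of a gene divided by the size factor of its library. The strand setting is not given in the sources used here. Reads were recovered as whole numbers within 0.01 for 100% of values, where a read can stand for a pair, since sequencing was paired-end.

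Samples were grouped by the genotype in their labels, with 1 mouse per library. The test was limma 3.58.1 (R 4.3.3) on log2(value + 1) with its trended variance prior, for the genes averaging 10 or more, and P values were adjusted by Benjamini-Hochberg. Depth ranged from 27689589 to 36647626 reads, and intervals are at 95%. Fold changes on this scale understate those of low genes. Alternatives were edgeR 4.0.16 and DESeq2 1.42.0 on recovered reads, limma-voom, TMM scaling, library totals, pseudocounts of 0.5 and 5, no filter, a mean of at least 50, a GC content and length correction (span 0.3), other memberships and lengths, each library left out and the replicate block. The fits were tested on simulated data.

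The members and all lists were chosen with earlier results of these data known. Members were named by role, with full values for the 3 smallest P in each direction, the catalytic pairs and the extremes of level. From the genes outside the rule, the 3 smallest P in each direction and Nfe2l1 were named, except 1 lower gene that is not reported here, with Shank3 and Ttr as checks. Psma5, Psma7, Psmd2, Psmd14, Psmg3 and Psme1 were given values after these had been seen. Paaf1 was not analysed here. GENCODE M21 gave 45229 of 46078 genes a symbol.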

Additional observations from a re-analysis of the deposited data

How the results depend on the processing

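No alternative called a member, and the smallest adjusted P of a member lay between 0.658 (without Shank3 TG replicate 1) and 1. The single genes kept their direction in 193 of 201 comparisons with the alternatives. The 8 reversals concerned Psmb7 (-0.014 with the GC content and length correction, -0.023 to 0.034 with 1 library left out), Psmc5 (0.0069 and -0.042 to 0.0059), Psmb8 (-0.27 to 0.0043 with 1 library left out) and Psmb10 (-0.15 to 0.0050), none of them called. The number of all genes called was 1, and became 7 with DESeq2, 5 with no filter and 1 to 2 with 1 library left out. Of members at an unadjusted P of 0.05, 2 in the reported fit, DESeq2 and the GC content and length correction left 0, and leaving out 1 library left 0 to 1. The core median ranged from -0.019 (without WT replicate 3) to 0.015. The median of the standard subunits was 1471 per kilobase of coding transcript. Core minus regulatory particle was -0.020 to -0.034 with 1 library left out and -0.036 without immunoproteasome, testis, thymus and chaperone genes and Psmc3ip. The cause of these shifts was not tested.

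Same-numbered mice of the 2 genotypes deviated together with correlations of 0.047, 0.016 and 0.093, none over 0.1, and no Shank3 TG mouse except replicate 3 correlated best with its own number, so the numbers were not taken as pairs. With the replicate block 1 gene was called and 1024 had an unadjusted P under 0.05, against 758, while 0 members were called and 2 had an unadjusted P under 0.05. Psmb8, Psmb9, Psmb11 and Psme2b, which had few reads, had intervals that exceed 1.2-fold. The intervals of Psmb10, Psmc3ip, Psme1, Psmg1, Psmg3 and Psmg4 exceeded it as well. The part of counting depth in these widths was not tested.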
